A study of Caenorhabditis elegans with 2 samples.

Results

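The binding sites described here are the reproducible FKH-8 peaks of first-stage (L1) larvae of Caenorhabditis elegans whose summits fell in an exon of a protein-coding gene on one of the 5 autosomes. A peak is a stretch of the genome enriched in chromatin immunoprecipitation with sequencing (ChIP-seq), and its summit is the single base that the authors marked as its highest point. The members were chosen by position alone: 289 of the 3955 autosomal peaks (7.31%) qualified, out of 4963 reproducible peaks in all, of which 1008 lay on the X chromosome. By the annotation at the summit, 86 peaks lay in coding sequence, 152 in a 5′ untranslated region (UTR), 47 in a 3′ UTR, and 4 in exons of transcripts that had neither coding sequence nor UTR at that base. Where transcripts of a locus disagreed, coding sequence was counted before 5′ UTR, and 5′ UTR before 3′ UTR. This order decided the class of 8 summits, 4 of which lay in the 5′ UTR of one gene and the 3′ UTR of another.

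Both samples were biological replicates of a single group. The worms were of strain OP652 with the genotype unc-119(tm4063) III; wgIs652, and carried a stable transgene that produced FKH-8 with GFP and FLAG fused to its C terminus. Whole larvae of mixed sex were fixed as starved L1, 6 hours after synchronization, so all cell types were mixed and the tagged protein came from the transgene. The labels name an antibody against GFP in the description and one against fkh-8 in the antibody field, and the control was not used here. No second condition exists, so no difference between conditions was tested.

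FKH-8 is a forkhead transcription factor, a family that binds DNA through a winged-helix domain. In C. elegans it is known as a regulator of genes for the cilia of sensory neurons, alongside DAF-19, the RFX factor that binds the X-box, an inverted repeat upstream of many ciliary genes. Most C. elegans genes are compact, many lie in operons, and many mRNAs receive a spliced leader by trans-splicing. An annotated 5′ end is therefore often a trans-splice site, and transcription may start further upstream.

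The sequences below show the motif matches nearest the summits that the results turn on. Each is a stretch of the RefSeq genome (WBcel235, the ce11 build), read 5′ to 3′ on the strand given, with the motif match in capitals. The first group holds X-box matches in the 5′ UTR peaks of xbx-3 (chrIII:10035942-10035971, plus strand), arl-3 (chrII:14607053-14607082, plus), dyf-3 (chrIV:3399190-3399219, plus), ift-74 (chrII:6680031-6680060, plus), bbs-5 (chrIII:10261702-10261731, plus) and xbx-1 (chrV:14980267-14980296, plus).
xbx-3: ccgtgtgtGTTGTCTTGGCAACagtcagaa
arl-3: gcatgcacGTCTCTATGGTAACatacggga
dyf-3: tttcctccGTTCCCATAGAAACtccctgca
ift-74: gtgtgcttGTTTCTATGACAACtaaacacg
bbs-5: tgagcagaGTTGCCATGGAGACcggtggta
xbx-1: gaacgcccGTTTCCATGGTAACcgtcattt

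X-box matches also occurred away from the start of the host gene. One lay in the peak in the 3′ UTR of pri-1, just upstream of bbs-4 (chrIII:9612234-9612263, plus strand), and others lay in coding sequence peaks of rgs-3 (chrII:6109345-6109374, plus), swsn-7 (chrII:8026249-8026278, plus) and nhr-47 (chrV:5507860-5507889, plus).
pri-1: tccttgccGTTGCCATGGAAACtcgcggac
rgs-3: cttcgaagGTCTCCTTGGCAACcacgtggg
swsn-7: cttccagaGTTGCCATGGAGACgagctgct
nhr-47: tttttcagGTTGCCATGGTAACtaatcatg

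The last group shows matches to GACGC or GAGAGA in peaks of high signal that lay in no window of a gene's 5′ end, or in one of a downstream neighbour only. They come from coding sequence of vhp-1 (chrII:5334771-5334800, minus strand), the 5′ UTR of F21C10.3 (chrV:9128720-9128749, minus), and the 3′ UTRs of C05D11.8 (chrIII:6421223-6421252, minus) and pmk-3 (chrIV:8143039-8143068, minus).
vhp-1: ttcaagaaccatGACGCttcgaaatttgtc
F21C10.3: ctgaaacacagaGACGCaggcagcgagcgt
C05D11.8: tagacagtgtctGACGCcgtggagacgcag
pmk-3: ggataaaagcatGAGAGAaaaacgagacaa

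Exonic summits were fewer than the space that exons take up on the autosomes, and the 5′ UTR was the exception. Exons of coding genes covered 30.5% of autosomal bases and held 7.31% of summits, a ratio of 0.239. Coding sequence covered 25.6% of bases and held 2.17% of summits, a ratio of 0.0848. The 3′ UTR covered 3.28% and held 1.19%, a ratio of 0.362. The 5′ UTR covered 1.44% of bases and held 3.84% of summits, a ratio of 2.67, above the ratio of 1.90 for intergenic sequence (35.8% of bases, 67.9% of summits). Introns stood at 0.737. These ratios are descriptions of one list of peaks, without a test.

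All 5 autosomes carried exonic peaks, in shares from 6.25% of peaks on IV (47 of 752) to 8.33% on V (72 of 864). Chromosome I held 18 of the 47 3′ UTR peaks, and V held 26 of the 86 coding sequence peaks. Of all 3955 autosomal peaks, I held 779 and V held 864. The members fell in 275 of 17242 autosomal coding genes (1.59%), with 84 host genes for coding sequence, 147 for 5′ UTR and 46 for 3′ UTR.

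Signal is the deposited height of each peak. Its scaling is not stated. Medians and ratios were therefore taken within 1 list, and the signals of a peak in the 2 replicate lists are given side by side, with no statement of which replicate is higher. The exonic peaks had a median signal of 140.5 (lowest 95.0, highest 1020), against 167.1 for the other autosomal peaks, a ratio of 0.841. Coding sequence peaks had a median of 131.7 and 3′ UTR peaks one of 126.7, while 5′ UTR peaks had 157.9, near the 160.4 of intronic and the 169.8 of intergenic peaks. In the replicates' own lists the ratio to other autosomal peaks was 0.767 and 0.768 for coding sequence (mean 0.768 ± 0.000478, SD, n = 2), 0.942 and 0.964 for 5′ UTR (0.953 ± 0.0153), and 0.787 and 0.764 for 3′ UTR (0.776 ± 0.0158). The lower signal of coding sequence and 3′ UTR peaks was thus seen in both replicates, and the 5′ UTR ratio lay above both in each.

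**Figure D1:**
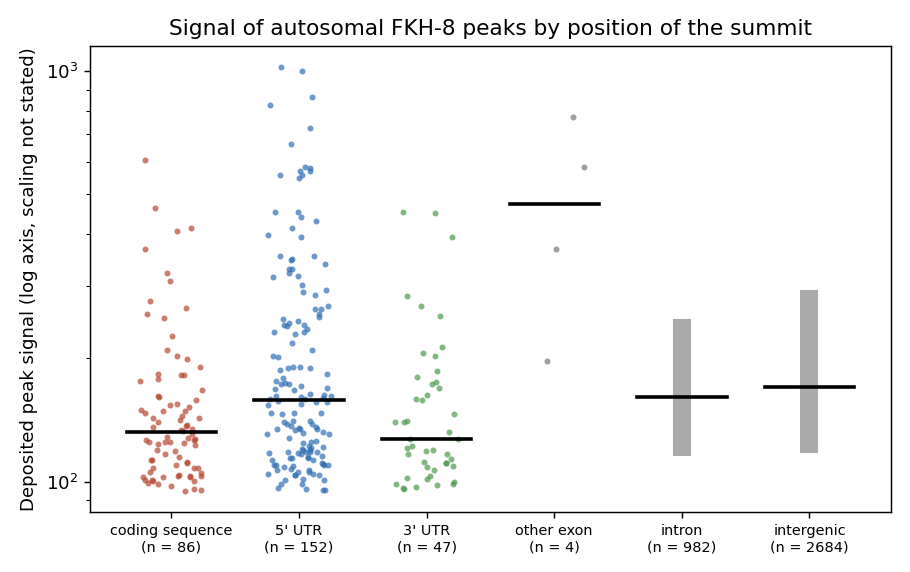
Deposited signal of autosomal peaks (log axis) by the annotation at the summit. Points are single exonic peaks, horizontal lines are medians, and grey bars span the middle 50% of intronic and intergenic peaks. The 5′ UTR points reach 1020, while the medians of coding sequence (131.7) and 3′ UTR (126.7) sit lowest.

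The share of exonic summits was larger at lower signal, in coding sequence and in the 3′ UTR. With the autosomal peaks ranked by signal and divided into 5 groups of 791, exonic summits made up 5.44%, 4.80%, 7.33%, 8.98% and 9.99% from the highest group to the lowest. Coding sequence went from 7 to 28 peaks (0.885% to 3.54%) and the 3′ UTR from 3 to 17 (0.379% to 2.15%). The 5′ UTR counts were 30, 23, 32, 33 and 34, between 2.91% and 4.30% in every group. The 500 strongest reproducible peaks, X included, held 23 of the 289 exonic peaks (7.96%), beside 407 of all 3955 autosomal peaks (10.3%). By class they held 17 of 152 in 5′ UTRs (11.2%), 2 of 86 in coding sequence (2.33%), 2 of 47 in 3′ UTRs (4.26%) and 2 of 4 in other exons.

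**Figure D2:**
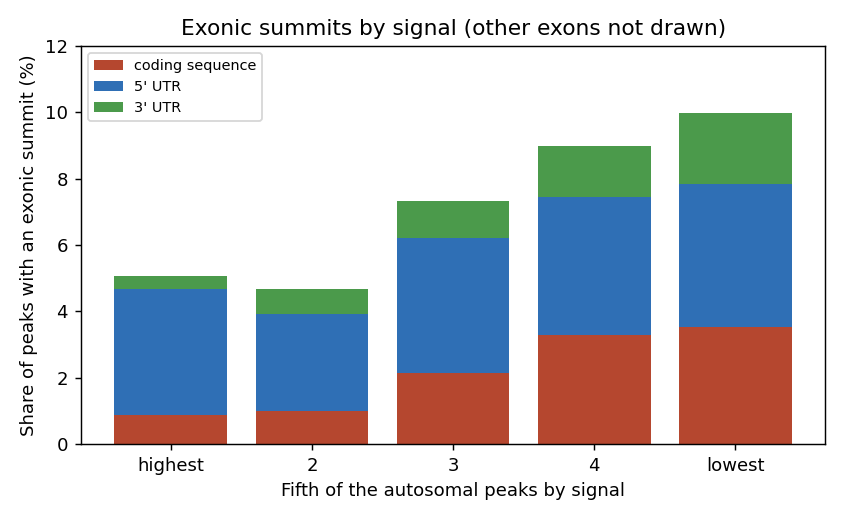
Share of autosomal peaks with an exonic summit, in 5 groups of 791 peaks by signal from highest to lowest, stacked by class. The coding sequence part grows from 0.885% to 3.54%, while the 5′ UTR part stays between 2.91% and 4.30%.

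The 5′ UTR peaks sat close to where the host transcripts begin. Their summits lay a median of 101.5 bp from the host gene's 5′ end and 49.5 bp from the nearest annotated transcript 5′ end of that gene, and 123 of 152 were within 200 bp of one. In 146 of the 152 the exon was the first of its transcript. Coding sequence summits lay a median of 880 bp from the nearest host transcript 5′ end, with 28 of 86 within 200 bp, and 44 of the 86 were in internal exons only. For 3′ UTR summits the median was 2244 bp, and 46 of the 47 were in last exons. These positions follow in large part from how the classes are defined. They were not set beside those of exon bases in general.

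**Figure D3:**
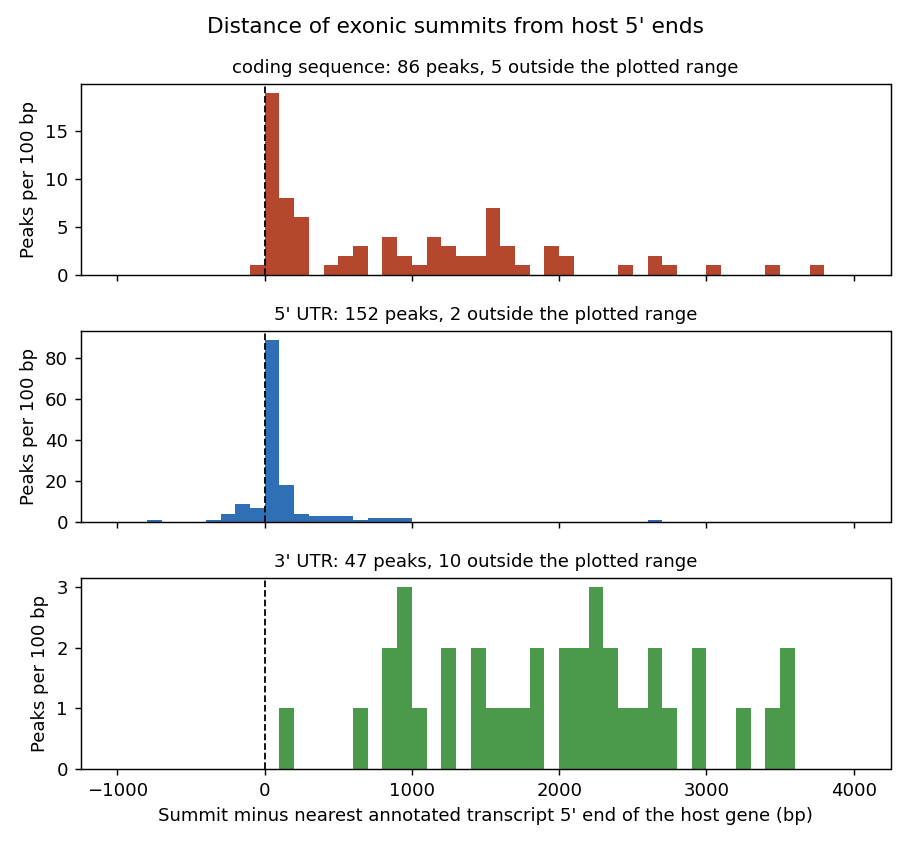
Distance from each exonic summit to the nearest annotated transcript 5′ end of its host gene (bp, positive inside the gene), counted per 100 bp. The 5′ UTR peaks gather just inside the 5′ end, coding sequence peaks show a group near it and a broad spread beyond, and 3′ UTR peaks lie far from it.

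The strongest 5′ UTR peaks included genes of RNA processing, transcription, signalling and traffic. The peak at ints-4, a subunit of the Integrator complex that processes small nuclear RNAs, had a signal of 1020 (522.5 in replicate 1 and 497.7 in replicate 2) with its summit 5 bp inside the gene's 5′ end, and ranked 27 of the 4963. F21C10.3 had 1001 (498.3 and 508.5), with the summit in an internal 5′ UTR exon 739 bp from the 5′ end (chrV:9128616-9128993). C34C12.2 had 861.8 (410.2 and 453.9), and its summit lay 2638 bp from the nearest transcript 5′ end of its gene, the farthest of all 5′ UTR peaks without a transcript window (chrIII:3456292-3456551). The last 2 summits were more than 200 bp inside the gene, and no other coding gene started just downstream.

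The next peak was that of tent-5, which encodes a terminal nucleotidyltransferase of RNA. Its signal was 823.3 (407.6 and 419.2), and it lay 4589 bp inside the gene but 113 bp from an internal transcript 5′ end. The peak at xbx-3 had 725.4 (364.1 and 356.0), 29 bp inside the gene, and holds the X-box match shown above. The ceh-38 peak, at a gene for a ONECUT homeodomain factor, had 663.2 (340.4 and 331.8) and lay 264 bp upstream of malt-1. The rab-18 peak, at a small GTPase gene of membrane traffic, had 581.3 (297.6 and 285.4) and lay 141 bp upstream of kbp-4, which encodes a kinetochore protein. The egl-30 peak, at the gene of the Gq alpha subunit, had 578.1, with 218.1 in replicate 1 and 347.5 in replicate 2. F25H9.7 (569.0) and T28F4.5 (568.8) completed the 10 strongest, and the replicate 1 summit of F25H9.7 lay in intergenic sequence, 1 of 22 such shifts among 5′ UTR peaks in that replicate.

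Of 58 autosomal genes on the cilium list, 7 (12.1%) hosted an exonic peak, all in a 5′ UTR, beside 1.59% of all autosomal coding genes. The list was drawn up with earlier results of these data known, so the share is a description. The peak at mks-6, a transition zone gene, had 182.9 (79.4 and 106.0). The peak at dyf-3, an intraflagellar transport gene, had 173.0 (80.8 and 96.6). The peak at osm-3, a ciliary kinesin gene, had 154.7 (69.9 and 82.4). The ift-74 peak, at another intraflagellar transport gene, had 140.2 (75.4 and 67.1). The peak at bbs-5, a BBSome subunit gene, had 139.3 (77.5 and 64.6), and that at xbx-1, a ciliary dynein light intermediate chain gene, had 112.9 (70.8 and 40.8). Of the 7, xbx-3 alone was among the 10 strongest 5′ UTR peaks, and the median of the 7 was 154.7, near the 157.9 of the class. An X-box match lay within 100 bp of the summit in 6 of the 7, all but osm-3. A window of a gene's 5′ end held 6 of the 7, again all but osm-3. The osm-3 summit was 320 bp inside the gene but 271 bp upstream of the 5′ end of another osm-3 transcript. Both ift-43 and bbs-4, further cilium genes, had an exonic peak of a neighbour upstream of their 5′ end.

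The arl-3 peak, picked after its value was seen because of its X-box, lay at a gene of a small GTPase known for ciliary cargo release that was not on the list. It had 322.3 (159.3 and 157.4) and lay 566 bp inside the gene, in no window.

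The strongest coding sequence peaks divided into those at the start of a gene and those deep within it. Y18D10A.4 led with 606.8 (247.7 and 353.4), and its summit lay 63 bp inside the gene's 5′ end. A second peak 202 bp further in (177.6) overlapped the same replicate peaks. The vhp-1 gene, which encodes a phosphatase of MAP kinases, had 462.6 (256.9 and 212.4) in an internal exon, 11509 bp from the gene's 5′ end but 227 bp from that of a shorter transcript (chrII:5334659-5334905). The same gene had a second peak in a 5′ UTR 1341 bp away (168.8). The mdt-26 peak, at a Mediator subunit gene, had 414.1 (223.2 and 200.7), 42 bp inside that gene and 437 bp upstream of ift-43. C32D5.14 had 406.4 (196.4 and 206.0), 101 bp inside its single-exon gene. T28D9.11 had 368.9 (157.0 and 201.7), 42 bp inside, where a noncoding gene is also annotated.

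Of the remaining coding sequence peaks in the first 10, C25E10.10 (321.2; 155.6 and 170.1) lay 476 bp inside its gene. C33B4.4 (307.8; 159.4 and 152.5) lay 42 bp from an internal transcript 5′ end. Internal exons held the summits at nhr-107, a nuclear hormone receptor gene, with 275.6 (121.9 and 149.4) and 1573 bp inside, and at C01G12.7, with 265.0 (120.2 and 150.9). The peak at acox-1.5, an acyl-CoA oxidase gene of peroxisomal fat breakdown, had 256.2 (127.9 and 128.4) and lay 4533 bp inside. A further peak, named after its value was seen, lay in coding sequence of unc-119, the gene that is mutated in this strain. It had 249.7 (128.7 and 127.4), and its summit was 11 bp inside the 5′ end of a transcript (chrIII:10906259-10906674). The weakest member of all was in coding sequence of ccr-4, a deadenylase gene, with 95.0 (50.8 and 44.3).

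The 3′ UTR peaks were led by C05D11.8 with 453.3 (174.4 and 279.0) and eat-16, a regulator of G protein signalling, with 450.8 (223.3 and 232.3). Neither had a coding 5′ end window at the summit. Of the other 8 in the first 10, 6 lay upstream of a following gene on the same strand. The cept-2 peak, at a phospholipid synthesis gene, had 394.5 (175.4 and 215.9) and lay 538 bp upstream of vha-13, a vacuolar ATPase subunit gene. The pmk-3 peak had 283.6 (149.9 and 134.8) and lay 449 bp upstream of pmk-2, both genes of p38 MAP kinases. The mstr-1 peak had 252.9 (109.0 and 133.5) and lay 122 bp upstream of kin-14. The ulp-2 peak, at a SUMO protease gene, had 206.0 (113.6 and 83.7) and lay 129 bp upstream of pbs-3, a proteasome subunit gene. The tsen-54 peak (202.3; 83.5 and 122.0) lay 269 bp upstream of F52C12.2, and that of C06H5.8 (186.2; 98.8 and 89.7) lay 148 bp upstream of E01B7.2. F55A3.2 (267.1) and F21F3.6 (212.3) had no such neighbour, nor did ppm-1.H (179.6).

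The 4 peaks in other exons had a median signal of 474.7. The rsp-1 peak, at a gene of an SR splicing factor, had 770.2 (371.0 and 411.1). It lay 135 bp upstream of the 5′ end of an rsp-1 transcript and 884 bp upstream of rsp-2, another such gene. The ash-2 peak, at a gene of the complex that methylates histone H3 on lysine, had 581.9 (283.6 and 295.3). It lay 105 bp upstream of the 5′ end of an ash-2 transcript and 477 bp upstream of Y17G7B.20. The rfip-1 peak had 367.6 (170.5 and 197.4) and that of fkh-7, a forkhead factor gene, had 196.7 (106.5 and 84.5).

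Some genes held more than 1 member: 14 genes had 2 exonic peaks each. Pairs such as egl-30 (578.1 and 267.0, summits 199 bp apart), mstr-1 (252.9 and 113.5, 200 bp apart) and hsp-1, an HSP70 chaperone gene (103.3 and 95.8, 233 bp apart), lay close together and shared a peak in at least 1 replicate. Others were apart, as at F53F10.2 (558.7 and 104.0, 973 bp), gldi-8 (397.6 and 109.5, 602 bp) and C01G12.7 (289.0 and 265.0, 1046 bp). Pairs are not independent sites, and 13 of the 289 peaks (4.50%) overlapped a peak of higher signal, beside 3.08% of all autosomal peaks.

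To ask which exonic summits lay near the start of a gene, each was placed against the 5′ ends of all coding genes. The window began 1000 bp before each 5′ end and stopped 200 bp after it. A window of any such gene held 156 of the 289 exonic summits (54.0%, exact 95% interval 48.0% to 59.8%), beside 46.7% of all autosomal peaks. By class the counts were 25 of 86 in coding sequence (29.1%), 103 of 152 in 5′ UTRs (67.8%) and 26 of 47 in 3′ UTRs (55.3%). The host gene's own window held 117 exonic summits (40.5%), all inside the host rather than upstream of it. These were 22 coding sequence summits (25.6%), 95 5′ UTR summits (62.5%) and 0 of the 47 3′ UTR summits (exact upper bound 7.55%). The low 3′ UTR count follows from where a 3′ UTR lies in a gene.

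Windows of a neighbouring gene held 83 exonic summits (28.7%, 23.6% to 34.3%). The same count gave 44.8% of all autosomal peaks and 59.6% of intergenic peaks, but these are unlike measures. A peak outside exons has no host here, so the window of any gene, also one whose intron holds it, counted as a neighbour's. For windows of any gene the shares were 54.0% of exonic, 46.7% of all autosomal and 59.6% of intergenic peaks. The 3 exonic classes differed in how the neighbouring genes lay. In 3′ UTRs, 26 of 47 summits (55.3%, 40.1% to 69.8%) were upstream of a neighbour, and in all 26 the neighbour lay on the host's strand, with a median of 416.5 bp to its 5′ end. In 5′ UTRs it was 43 of 152 (28.3%, 21.3% to 36.2%), all 43 on the opposite strand as divergent pairs, with a median of 298 bp. In coding sequence it was 12 of 86 (14.0%, 7.42% to 23.1%), 5 on the same strand and 7 on the other, with a median of 194.5 bp. The strand pattern follows from where a 3′ or 5′ UTR lies relative to an adjacent gene. Of the 43 5′ UTR summits with a neighbour, 35 were also in the host's window, as were 9 of the 12 in coding sequence, so such peaks cannot be assigned to 1 gene of the pair by position. The neighbours numbered 91 genes, and 9 summits lay in the windows of 2 or more.

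**Figure D4:**
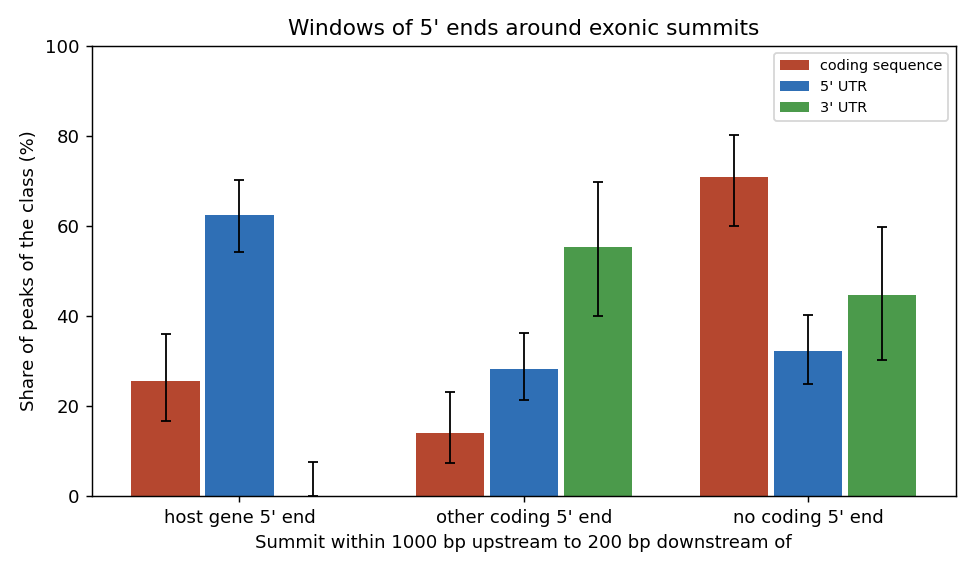
Share of each class's summits that lay in the window of the host gene's 5′ end, of another coding gene's 5′ end, or of none (from 1000 bp before to 200 bp after the 5′ end), with exact 95% binomial intervals. The host window dominates in the 5′ UTR (62.5%), a neighbour's window in the 3′ UTR (55.3%), and no window in coding sequence (70.9%).

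No gene 5′ end window held the summit of 133 exonic peaks (46.0%): 61 in coding sequence (70.9%), 49 in 5′ UTRs (32.2%), 21 in 3′ UTRs (44.7%) and 2 in other exons. With every annotated transcript 5′ end given a window, an alternative added after the values were seen, 196 exonic summits (67.8%) were in one, beside 53.4% of all autosomal peaks. The gain was mainly in 5′ UTRs, where 134 of 152 (88.2%) then had a window, against 31 of 86 in coding sequence and 27 of 47 in 3′ UTRs. In other exons it was 4 of 4. In all, 93 summits had no gene or transcript window: 55 in coding sequence, 18 in 5′ UTRs and 20 in 3′ UTRs. The 18 5′ UTR summits lay 210 to 2638 bp (median 706.5 bp) from a transcript 5′ end of the host.

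The absence of a window did not go with low signal in every class. In coding sequence the median was 127.4 without a window and 143.0 with one. In 5′ UTRs it was 161.4 without and 156.4 with, and in 3′ UTRs 139.3 without and 112.4 with. The peaks at vhp-1, F21C10.3, C34C12.2, C05D11.8 and eat-16 all belong to those without a gene window. Without a window, the nearest coding gene 5′ end was a median of 1736 bp away for coding sequence, 1189 bp for 5′ UTR and 2142 bp for 3′ UTR.

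All 289 members overlapped a peak in each replicate's own list, as did 3954 of the 3955 autosomal peaks in each. Such overlap is close to given, since the list was thresholded on reproducibility and the replicate lists are long (19354 and 21452 peaks). Members among the highest 4963 of both replicates numbered 220 (76.1%), below the 83.4% of all autosomal peaks. This count is a cut on signal, so it does not measure repetition apart from signal. In the reproducible list, 37.4% of exonic peaks ranked in the highest 2481, beside 50.4% of all autosomal peaks. By class there were 125 of 152 (82.2%) in 5′ UTRs, 62 of 86 (72.1%) in coding sequence and 29 of 47 (61.7%) in 3′ UTRs. The class of the summit was the same in both replicates for 216 of 289 (74.7%), with 89.4% of 3′ UTR peaks, 73.3% of coding sequence peaks and 70.4% of 5′ UTR peaks. Summits moved by a median of 14 bp in replicate 1 and 7 bp in replicate 2, beside 11 bp and 7 bp for all autosomal peaks. In 5′ UTRs, 22 summits of replicate 1 and 12 of replicate 2 lay in intergenic sequence, and in coding sequence 10 and 8 lay in an intron. The rank correlation of the replicates' signals was 0.722 over 289 members (0.769 in 5′ UTRs, 0.608 in coding sequence, 0.637 in 3′ UTRs), beside 0.854 for other autosomal peaks. It is a description, since 8 members shared a replicate peak with another member and all shared both libraries. Some further members had replicate values from summits well away from their own. The met-1 peak (134.8), which overlapped a peak of higher signal, had 313.2 and 322.8 from summits 175 and 234 bp away.

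**Figure D5:**
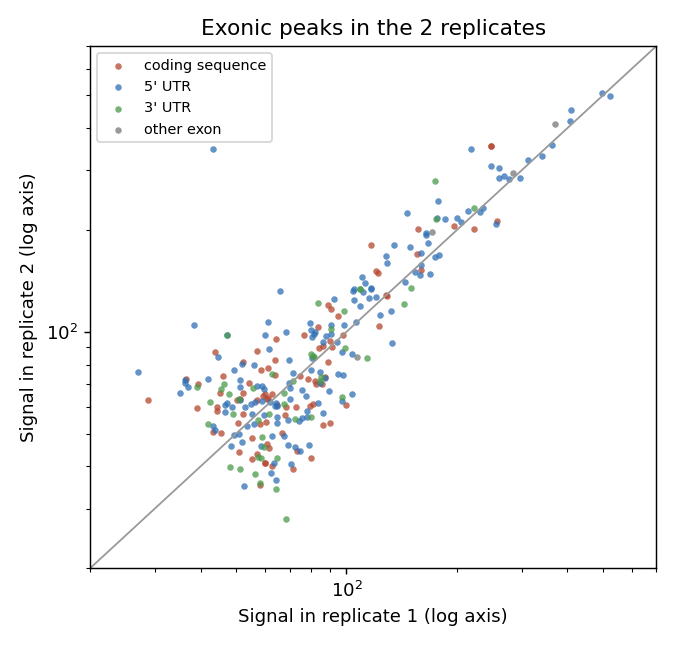
Signal of the exonic peaks in replicate 1 and replicate 2 (both log axes), with the line of equal values. The second egl-30 peak, at 43.4 in replicate 1 and 347.5 in replicate 2, lies farthest from the line. Its replicate 2 value is that of a peak shared with the first egl-30 peak, so the gap does not measure how that site repeats. The strongest peaks lie along the line, with some to one side, such as the first egl-30 peak (218.1 and 347.5) and C05D11.8 (174.4 and 279.0). The scale of the 2 lists is not stated to be the same.

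Motifs were searched on both strands within 100 bp of each summit, and matches of different motifs may overlap (GAGAGA and GACGC share GA). GACGC was found at 81 exonic peaks (28.0%), beside 31.2% of all autosomal peaks, and GAGAGA at 84 (29.1%), beside 35.7%. Both were found at 33 (11.4%), beside 14.9% of all autosomal peaks. Coding sequence was lower than the other classes in each, with 16 of 86 (18.6%) for GACGC and 15 of 86 (17.4%) for GAGAGA, while 5′ UTRs had 50 of 152 (32.9%) for each, and 3′ UTRs 14 (29.8%) and 18 (38.3%) of 47. GTAAACA, a forkhead consensus, was found at 10 exonic peaks (3.46%), beside 3.77% of all autosomal peaks, and at 0 of 86 in coding sequence (exact upper bound 4.20%). Within 200 bp it was found at 5 of 86 coding sequence peaks (5.81%), beside 6.30% of all autosomal peaks, so the 0 holds at the narrower width. These matches are descriptions of the letters near a summit. The median GC content within 100 bp was 40.3% for exonic peaks and 40.8% for other autosomal peaks, with 41.3% in coding sequence and 35.8% in 3′ UTRs.

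An X-box match lay within 100 bp of 15 exonic summits (5.19%), beside 3.51% of all autosomal peaks, at a median of 18 bp from the summit. By class these were 7 of 152 in 5′ UTRs (4.61%), 6 of 86 in coding sequence (6.98%) and 2 of 47 in 3′ UTRs (4.26%). The order of the classes depends on the width: within 50 bp coding sequence had 2 of 86 (2.33%), below the 7 of 152 (4.61%) in 5′ UTRs and near the 2.05% of all autosomal peaks. The 5′ UTR matches were at xbx-3, arl-3, mks-6, dyf-3, ift-74, bbs-5 and xbx-1, all genes of cilia, of which arl-3 was added after its value was seen. The coding sequence matches were at genes of other kinds, named after their values were seen: nhr-47, a nuclear hormone receptor (202.6; 90.9 and 116.6), rgs-3, a regulator of G protein signalling (167.0; 84.3 and 89.5), chs-1, a chitin synthase, tag-272, swsn-7, a subunit of a chromatin remodelling complex (128.2; 67.9 and 56.6), and srbc-59, a chemoreceptor. In 5 of these 6 the summit lay in no gene 5′ end window, and in 4 it lay in internal exons only. The 3′ UTR matches were at pri-1, a DNA primase gene (172.6; 81.7 and 84.3; 63 bp upstream of bbs-4, another BBSome gene), and at hcf-1 (159.3; 84.9 and 71.4; 511 bp upstream of rdl-1).

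Other gene lists showed which kinds of genes carried exonic peaks and by which exon class. Membrane traffic genes were hosts at 5 of 65 (7.69%), all in the 5′ UTR. These included rab-18, sec-61.A, the translocon channel subunit (452.4; 231.5 and 226.5; 544 bp upstream of rps-18), and vps-25, an ESCRT gene (153.3; 61.6 and 88.8). The other 2, vps-24 and vps-20, are ESCRT genes too. All 5 summits also lay upstream of a neighbour on the opposite strand. Besides rps-18, these were kbp-4 (141 bp, at rab-18), uba-2 (318 bp, at vps-25), eif-1 (474 bp, at vps-24) and eif-4A3 (474 bp, at vps-20). By position alone, these peaks cannot be assigned to the listed gene. Mediator and RNA polymerase II genes were hosts at 3 of 44 (6.82%), with mdt-26 and rpb-7 in coding sequence and mdt-18 in a 5′ UTR. The same limit holds for all 3, which lay upstream of ift-43 (437 bp), Y54E10BR.2 (1 bp) and uri-1 (270 bp), respectively. Nuclear receptors were hosts at 12 of 246 (4.88%), 4 in coding sequence and 8 in a 5′ UTR. Homeobox genes were hosts at 2 of 45, ceh-38 and ceh-57. Forkhead genes were hosts at 1 of 11, fkh-7.

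Chemoreceptor genes were hosts at 11 of 1331 (0.826%), below the 1.59% of all autosomal coding genes, with signals of only 102.8 to 175.5. Mitochondrial ribosome, chaperone and splicing lists had 1 host each (mrps-5, hsp-1 and rsp-1). There were 0 hosts among 76 ribosomal protein, 35 translation factor, 32 tRNA synthetase, 52 ubiquitin-proteasome, 17 vacuolar ATPase, 26 nuclear pore, 68 histone, 129 collagen and 106 neuropeptide genes. Some of these lists had genes among the neighbours: rps-18, eif-3.J, eif-1, eif-4A3, fars-1, pbs-3, rpt-3 and vha-13. Over all 17242 autosomal coding genes, 91 were neighbours. The nuclear pore, histone, collagen and neuropeptide lists had 0 neighbours as well as 0 hosts. Taken alone, a list of such a size can hold 0 hosts at a share of 1.59%, so the 0 hosts are not read as particular to any of them. The lists were not tested together. The shares of all gene lists are counts beside the share over all genes, without a test.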

How the data were processed

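ChIP-seq peak lists in narrowPeak format were used on the ce11 build, which equals WBcel235: per the labels, an optimal list thresholded on the irreproducible discovery rate (IDR), a pooled list and 1 list per replicate. No source used here gives the aligner, the peak caller or the IDR cutoff. The signal values are the authors' deposited column, whose scaling is not stated, and the summit is the deposited peak start plus offset. Medians and ratios of signal were taken within a list, and the replicates' signals are shown side by side. The files give no read counts, so depth is unknown, and exact (Clopper-Pearson) 95% intervals cover the counting of peaks only. The labels call the 2 samples biological replicates.

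Exons came from Ensembl release 115 gene models and sequence from the RefSeq genome. A member was matched to a replicate's peaks by an overlap of 1 base or more. Where several overlapped, the one of highest signal was taken, which can be that of a stronger adjacent peak. Scripts ran in Python 3.11.15 with numpy 2.4.6, scipy 1.17.1 and matplotlib 3.10.9. Their exon classes and 5′ end windows were checked at random positions of the annotation with known answers. That check did not cover the motif search or the replicate matching. Genes named were the 10 highest peaks per class, the 5 highest outside windows, genes with 2 members, up to 3 per list, and the lowest member. The further hosts named for the cilium and membrane traffic lists, the X-box hosts, arl-3 and unc-119 were added after their values were seen. The members and the lists were chosen with earlier results of these data known. Alternatives are given in the closing section.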

Additional observations from a re-analysis of the deposited data

How the results depend on the processing

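The exonic share of 7.31% was 5.42% for the 2481 strongest reproducible peaks, 12.2% for the 9926 strongest pooled peaks, and 6.17% with 1 transcript per gene. In those 2 lists, coding sequence made up 20.4% and 51.4% of exonic peaks (29.8% in the reproducible list) and 5′ UTR 63.0% and 28.9% (52.6%). The share in a neighbour's window (28.7%) was 38.0% and 21.3% in them, 20.8% with windows of 500 bp upstream and 100 bp downstream, and 42.6% with 2000 and 500 bp. The share in no window (46.0%) was 60.5% in the longer list, 58.8% and 34.6% with those windows, and 32.2% with all transcript 5′ ends, the last chosen after seeing the data. The signal ratio (0.841) was 0.984 and 0.710 in the shorter and the longer list. With each replicate left out, the ranges were 7.79% to 7.83% exonic, 31.7% to 32.0% coding sequence, 49.3% to 54.0% 5′ UTR, 12.6% to 17.3% 3′ UTR, 27.2% to 28.1% neighbour, 46.3% to 47.1% no window, and 0.840 to 0.856 for the signal ratio. The cause of these moves was not tested. The GTAAACA share of exonic peaks over that of all autosomal peaks was 0.918 at 100 bp, and turned to above 1 at both other widths (1.24 at 50 bp and 1.10 at 200 bp). No paired analysis was possible because the design has 1 group. Unknown depth and the unstated signal scale limit what can be compared across lists.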
